A study of Mus musculus with 6 samples.

Results

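The receptor chains that carry signals of the interleukin-1 (IL-1) family, of IL-12 and of cytokines that use gp130 were followed in regulatory T cells of mouse bone marrow. They were chosen by name, with earlier results of these data known, and 10 of 47643 genes in each deposited table are described. The myeloma group held 3 libraries, replicates 3, 4 and 5, from animals given Vk*MYC, and the control group 3 libraries, replicates 1, 3 and 5, from mice labelled as controls. Vk*MYC is a mouse myeloma in which MYC is switched on in germinal centre B cells. All 6 libraries came from cells sorted as CD4+ and positive for a GFP reporter of FOXP3, the transcription factor of regulatory T cells. Strain, age and time after injection are not stated in the sources read. The study's title speaks of blocking IFNRA1, and the comparison asks which transcripts of these cells differ in marrow that carries myeloma.

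Receptors of the IL-1 family pair a binding chain with a partner and signal through a shared intracellular (TIR) domain, the adaptor MyD88 and NF-kB. Il1r1 encodes the signalling IL-1 receptor and Il1r2 a decoy that binds IL-1 without a TIR domain. Il1rl1 encodes ST2, the receptor of IL-33 found on regulatory T cells of tissues, and Il18r1 and Il18rap encode the chains of the IL-18 receptor. Il12rb1 encodes the chain that the IL-12 and IL-23 receptors share, and Il12rb2 the chain that completes the IL-12 receptor. Il6ra encodes the IL-6 binding chain, Il27ra the IL-27 binding chain, and Il6st encodes gp130, with which both signal through JAK kinases and STAT proteins.

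Il12rb1 was the receptor gene that rose, to 97.0 ± 5.71 CPM in myeloma against 50.1 ± 8.24 CPM in controls (SD, n = 3 each). CPM are counts relative to library size, multiplied up to a common total, after adjustment of library sizes by the trimmed mean method (TMM). Il6ra fell, to 178 ± 29.7 CPM in myeloma against 254 ± 32.1 CPM in controls. Il1r2 and Il18rap lay higher in each myeloma library than in each control library, and Il6st lower, without passing the test. Il1rl1, Il18r1 and Il27ra were abundant in both groups and not called. Il1r1 and Il12rb2 had too few counts to be tested.

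Of the 10 receptor genes 8 passed the filter on low counts. edgeR's quasi-likelihood F test was run on 13235 genes, with Benjamini-Hochberg adjusted p called at 0.05. By this test 1 of them was higher and 1 lower in myeloma. Of all genes tested, 11.0% were called, 6.33% as higher and 4.69% as lower. That is 838 genes higher and 621 lower, and with library sizes alone in place of TMM 633 higher and 1004 lower. The groups did not overlap for 5 receptor genes, where 33.3% of all genes were separated in this way, 17.3% as higher and 16.0% as lower.

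Total expected counts ran from 10240620 to 12008165 in myeloma and from 11688282 to 13314631 in controls. Transcripts of the sorted cell were high throughout, with Foxp3 at 991 to 1068 CPM in myeloma and 992 to 1247 CPM in controls, and Cd4 at 479 to 496 and 476 to 552 CPM. Transcripts of other marrow cells were also present. Summed levels of 10 plasma cell markers were 293 to 562 CPM in myeloma and 155 to 226 CPM in controls. Of 9 tested, 3 were called higher and 0 lower. In controls most of the sum was Prdm1, Xbp1 and Irf4, of which Prdm1 and Irf4 are also on lists of genes used below for regulatory T cells. Jchain alone stood at 37.7 to 199 CPM in myeloma and 0.601 to 3.70 CPM in controls. The sums were 30.4 to 73.9 and 49.9 to 320 CPM for 10 B cell markers, and 3870 to 4798 and 6740 to 14760 CPM for 10 red cell markers. In bulk libraries, fewer cells of a type and less RNA per cell cannot be told apart.

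**Figure D1:**
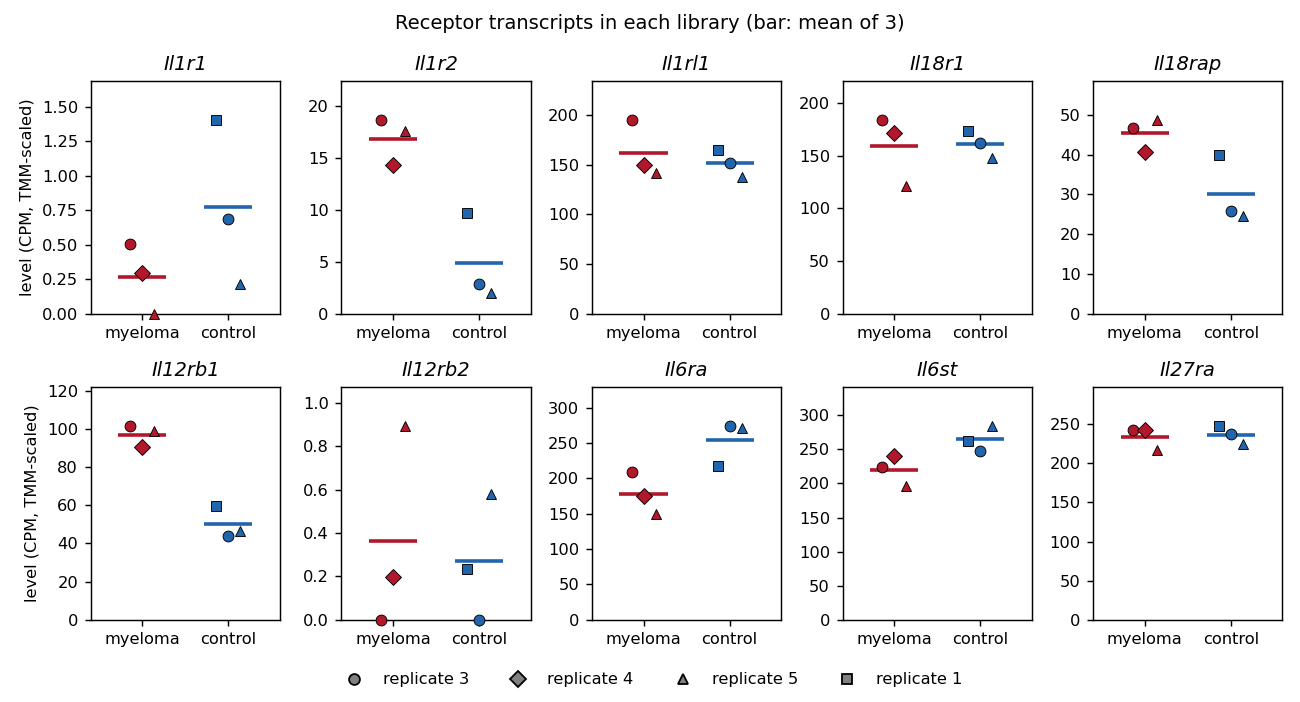
Level of each of the 10 receptor genes (vertical axes, CPM after TMM scaling, each starting at 0) in the 3 myeloma libraries and the 3 control libraries; symbols mark the replicate number and bars the mean. The myeloma points of Il12rb1 (90.6 to 101.6 CPM) stand above the control points (44.1 to 59.5 CPM), and those of Il6ra (149.8 to 209 CPM) below them (217 to 274 CPM).

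Promoter sequence is shown for those receptor genes whose groups did not overlap and that have an entry in the RefSeq promoter table for GRCm38.p6. In it 8 of the 10 genes matched. Il12rb1 and Il27ra had no entry, so their promoters were not searched. Each line gives the 250 bases before a listed start, on the gene's own strand. The regions are chr1:40085843-40086092 on the plus strand for Il1r2, chr1:40515112-40515361 on the plus strand for Il18rap, chr3:89913197-89913446 on the minus strand for Il6ra and chr13:112463820-112464069 on the plus strand for Il6st. Capitals mark a match to a motif.
Il1r2: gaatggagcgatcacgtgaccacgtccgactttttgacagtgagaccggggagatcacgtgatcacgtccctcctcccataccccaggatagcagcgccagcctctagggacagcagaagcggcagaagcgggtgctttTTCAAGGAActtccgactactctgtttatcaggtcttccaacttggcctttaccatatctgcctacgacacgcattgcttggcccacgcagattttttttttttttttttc
Il18rap: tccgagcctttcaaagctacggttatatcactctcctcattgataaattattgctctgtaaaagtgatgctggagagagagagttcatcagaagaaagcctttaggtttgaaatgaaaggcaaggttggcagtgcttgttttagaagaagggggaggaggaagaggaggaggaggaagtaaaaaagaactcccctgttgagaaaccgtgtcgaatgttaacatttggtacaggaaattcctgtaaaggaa
Il6ra: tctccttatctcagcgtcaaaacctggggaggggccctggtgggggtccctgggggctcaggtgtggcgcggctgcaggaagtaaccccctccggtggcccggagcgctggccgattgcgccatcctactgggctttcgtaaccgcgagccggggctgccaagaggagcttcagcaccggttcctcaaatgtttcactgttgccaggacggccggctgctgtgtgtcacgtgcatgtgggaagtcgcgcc
Il6st: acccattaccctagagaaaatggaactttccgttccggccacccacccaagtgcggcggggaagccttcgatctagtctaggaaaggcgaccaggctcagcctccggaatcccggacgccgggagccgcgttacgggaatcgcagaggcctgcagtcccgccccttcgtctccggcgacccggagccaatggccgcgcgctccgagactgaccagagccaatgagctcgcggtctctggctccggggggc
Motifs searched on both strands were the gamma-activated sequence TTCNNNGAA, the AP-1 site TGANTCA, the T-box site AGGTGTGA, the interferon-stimulated response element and the NF-kB site. The single match in these 4 windows was a gamma-activated sequence from 111 to 103 bases before the listed Il1r2 start, which lies inside the annotated span of the gene and not at its first base. Of 32851 promoter windows of the same length 7.02% hold that motif, 2.98% the interferon-stimulated response element, 6.75% the AP-1 site, 0.356% the NF-kB site and 1.12% the T-box site. Among the windows of the other receptor genes, 1 of Il18r1 held 2 gamma-activated sequences and that of Il12rb2 held 1. A match of letters is a description and not a binding site.

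Il12rb1 (ENSMUSG00000000791.8, chr8:70808449-70821424 in mm10, plus strand) stood at 101.6, 90.6 and 98.9 CPM in myeloma replicates 3, 4 and 5, against 59.5, 44.1 and 46.7 CPM in control replicates 1, 3 and 5. The myeloma libraries lay close together and well above the highest control. The log2 fold change was 0.95, with an SE of 0.12 and an adjusted p of 0.0025 by edgeR. It was called whichever library was left out, with a log2 fold change from 0.87 without control replicate 3 to 1.09 without control replicate 1. Transcripts of the partner chain were almost missing. Il12rb2 (ENSMUSG00000018341.12, chr6:67291318-67376188, minus strand) had 0, 2.07 and 10.19 expected counts in myeloma replicates 3, 4 and 5, against 3.19, 0 and 8.13 in control replicates 1, 3 and 5. These 23.58 counts over 6 libraries overlap between the groups and allow no test, and 3 counts correspond to 0.218 to 0.298 CPM. The gene overlaps the abundant Serbp1 on the opposite strand, at 371 to 411 CPM in myeloma and 320.5 to 353 CPM in controls, and without strand the reads of both cannot be told apart there.

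Il6ra (ENSMUSG00000027947.11, chr3:89864059-89913196, minus strand) stood at 209, 175 and 149.8 CPM in myeloma replicates 3, 4 and 5, against 217, 274 and 271 CPM in control replicates 1, 3 and 5. The groups did not overlap, but myeloma replicate 3 and control replicate 1 lay close to each other. The log2 fold change was -0.52 with an SE of 0.14 and an adjusted p of 0.0442 by edgeR. The call was lost without myeloma replicate 4 (adjusted p = 0.136), myeloma replicate 5 (0.0772), control replicate 3 (0.153) or control replicate 5 (0.131), with log2 fold changes from -0.66 to -0.41 over the 6 such fits. B cell markers moved in the same direction, with 5 of 10 called lower by edgeR, 7 called by DESeq2 and 1 by limma-voom. Their sum in control replicate 1 (49.9 CPM) lay within the myeloma range of 30.4 to 73.9 CPM. In control replicates 3 and 5 it was 249 and 320 CPM. The part of B cells in the Il6ra result was not tested.

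Il6st (ENSMUSG00000021756.12, chr13:112464070-112510086, plus strand) stood at 225, 239.7 and 196 CPM in myeloma replicates 3, 4 and 5, against 263, 247 and 284 CPM in control replicates 1, 3 and 5. Each myeloma library lay below each control, and the difference of -0.27 on the log2 scale, with SE 0.10 and adjusted p 0.117, missed the threshold. Il27ra (ENSMUSG00000005465.8, chr8:84030294-84042589, minus strand) stood at 242, 242 and 217 CPM in myeloma replicates 3, 4 and 5, against 248, 238 and 224 CPM in control replicates 1, 3 and 5. Its region overlaps Palm3 on the opposite strand, at 16 to 20.5 CPM in myeloma and 19.9 to 32.6 CPM in controls. The groups overlapped fully (log2 fold change -0.02, SE 0.08, adjusted p = 0.919). In TPM, which are scaled per transcript length, the ratio of Il6ra to Il6st was 1.22, 0.938 and 1.08 in myeloma replicates 3, 4 and 5, against 1.05, 1.525 and 1.19 in control replicates 1, 3 and 5. Both chains of the IL-6 receptor thus lay lower while their ratio overlapped between the groups. The ratio of Il27ra to Il6st was 3.23, 2.89 and 3.44 in the same myeloma libraries, against 2.66, 2.82 and 2.02 in the controls.

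**Figure D2:**
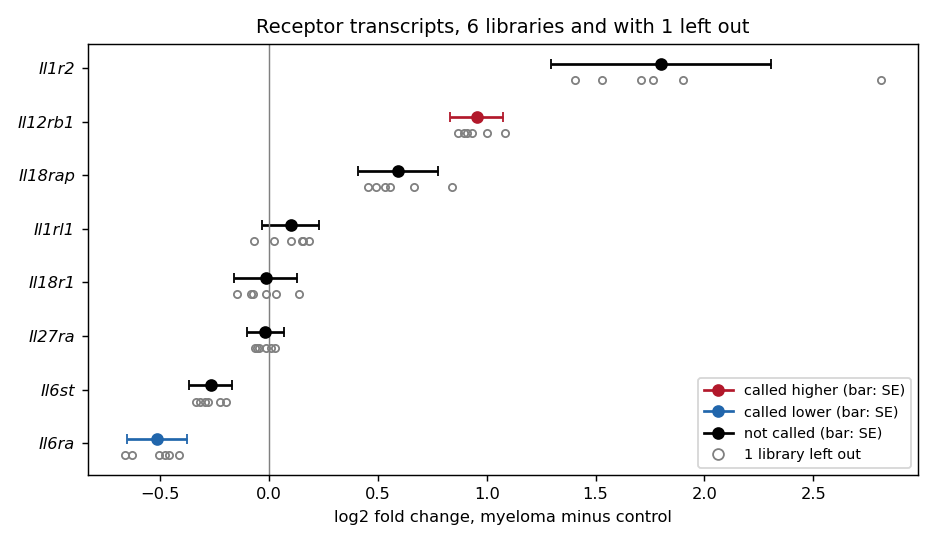
Log2 fold change (horizontal axis, myeloma minus control) of the 8 receptor genes tested, with its SE as the bar, and below each the 6 values with 1 library left out as open circles. Il12rb1 at 0.95 and Il6ra at -0.52 were called, and the open circle of Il1r2 at 2.81 is the fit without control replicate 1.

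The IL-1 receptor genes lie in a row of 478 kb on chromosome 1, all on the plus strand, in the order Il1r2, Il1r1, Il1rl2, Il1rl1, Il18r1 and Il18rap. Il1rl1 ends 136 bases before Il18r1 begins. Il1r2 stood at a log2 fold change of 1.80, the IL-36 receptor gene Il1rl2 at -0.60 (SE 0.46, adjusted p = 0.445) with 0.982 to 1.79 CPM in myeloma and 1.80 to 2.61 CPM in controls, Il1rl1 at 0.10, Il18r1 at -0.02 and Il18rap at 0.59. None of these was called. Before the row lies Map4k4, a kinase gene, which was called lower (log2 fold change -0.55, SE 0.09, adjusted p = 0.00708). After it lie the sodium-proton exchanger genes Slc9a4 and Slc9a2, with at most 0.595 CPM in a myeloma library and 0.218 CPM in a control library.

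**Figure D3:**
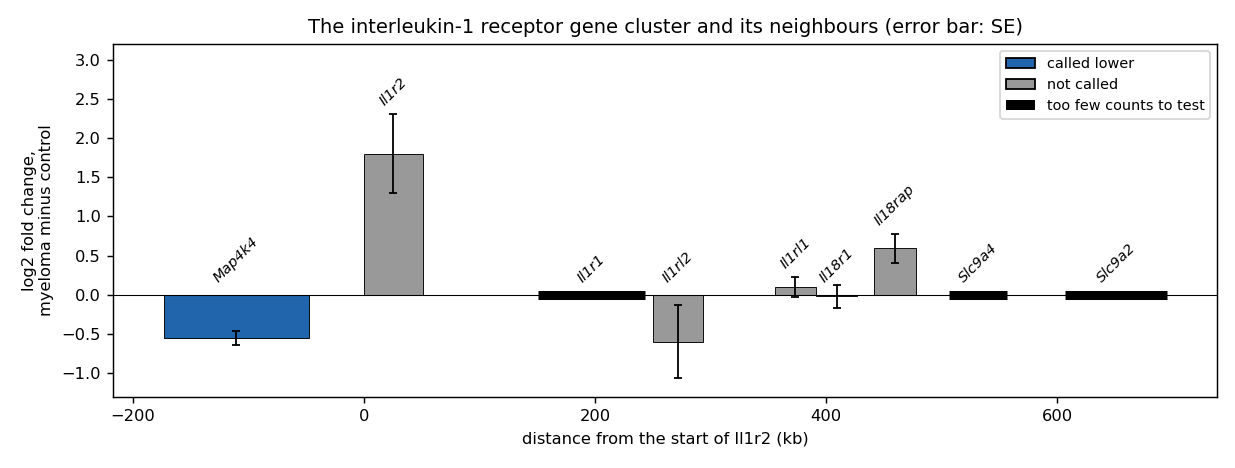
Log2 fold change (vertical axis, myeloma minus control, error bars SE) of the genes in and beside the IL-1 receptor row, drawn at their distance in kb from the start of Il1r2 (horizontal axis); the width of a bar is the length of the gene. Il1r2 and Il18rap, at the ends of the row, have the highest values at 1.80 and 0.59, and Il1rl1 and Il18r1 between them lie near 0.

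Il1r2 (ENSMUSG00000026073.13, chr1:40074079-40125231) stood at 18.7, 14.4 and 17.6 CPM in myeloma replicates 3, 4 and 5, against 9.75, 2.835 and 1.96 CPM in control replicates 1, 3 and 5. Control replicate 1 lay between the other controls and the myeloma libraries. The difference was 3.48-fold (1.80 on the log2 scale, SE 0.51) and missed the threshold (adjusted p = 0.053 by edgeR). Without control replicate 1 it passed at a log2 fold change of 2.81 (adjusted p = 0.00168). Leaving out any other library brought no call. The adjusted p was highest, at 0.169, with control replicate 3 removed. Il1r2 also passed with DESeq2 (adjusted p = 0.00138) and limma-voom (0.0168) on all 6 libraries, but not with the effective-length offset (0.0822). The gene was called in 1 of 6 fits with 1 library left out and in 4 of 10 other settings. Neutrophils express this decoy too. Of 13 neutrophil markers none was called by edgeR (6 at an unadjusted p under 0.05, 3 by DESeq2 and 1 by limma-voom), and their sums were 170 to 550 CPM in myeloma, against 88.6 to 236 CPM in controls. The 12 monocyte and macrophage markers, of which 3 were called higher, summed to 97.1 to 640 CPM in myeloma and 60.4 to 137 CPM in controls. The part of neutrophils, monocytes and macrophages in the Il1r2 result was not tested. Il1r1 (ENSMUSG00000026072.12, chr1:40225080-40317257), the signalling receptor for the same ligand, had 6, 3 and 0 expected counts in myeloma and 18, 8 and 3 in controls. At this depth a difference in Il1r1 was not detectable.

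The IL-18 receptor chains differed in their values. Il18rap (ENSMUSG00000026068.11, chr1:40515362-40551705) stood at 46.8, 40.7 and 48.8 CPM in myeloma replicates 3, 4 and 5, against 40.03, 25.8 and 24.6 CPM in control replicates 1, 3 and 5. The lowest myeloma library and control replicate 1 nearly met, and the other controls lay lower. The log2 fold change of 0.59 (SE 0.18) missed the threshold (adjusted p = 0.0704), and without control replicate 1 it passed at 0.84 (adjusted p = 0.00802). With DESeq2 on all libraries it passed too (adjusted p = 0.0284), and with limma-voom it did not (0.0535). Il18rap was called in 1 of 6 fits with 1 library left out and in 3 of 10 other settings. Il18r1 (ENSMUSG00000026070.15, chr1:40465552-40500854) stood at 184, 172 and 121 CPM in myeloma, against 174, 162 and 148 CPM in controls. These values overlap, at -0.02 on the log2 scale with an SE of 0.15 (adjusted p = 0.960). The TPM ratio of Il18r1 to Il18rap was 3.88, 4.42 and 2.51 in myeloma replicates 3, 4 and 5, against 4.08, 7.47 and 7.32 in control replicates 1, 3 and 5.

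Il1rl1 (ENSMUSG00000026069.15, chr1:40429570-40465415), the ST2 gene, stood at 195, 149.9 and 141.5 CPM in myeloma replicates 3, 4 and 5, against 165, 152 and 138 CPM in control replicates 1, 3 and 5. The groups overlapped (log2 fold change 0.10, SE 0.13, adjusted p = 0.669), and the sign turned without myeloma replicate 3 (-0.07). ST2 is also made by mast cells, basophils and group 2 innate lymphoid cells. Of 11 mast cell and basophil markers 3 (Mcpt4, Tpsb2 and Cma1) were at 0 in every library, and all 11 summed to 2.12 to 10.7 CPM in myeloma and 2.49 to 8.93 CPM in controls. In control replicates 1, 3 and 5 Prss34 stood at 4.06, 0 and 3.41 CPM and Mcpt8 at 1.56, 0 and 0.871 CPM. Both were at 0 in myeloma, as were Cpa3, Fcer1a and Ms4a2, which reached at most 0.581 CPM in controls. Kit and Hdc were highest in myeloma replicate 5, at 5.54 and 3.93 CPM. The 10 markers of group 2 innate lymphoid cells summed to 573 to 652 CPM in myeloma and 479 to 617 CPM in controls, with 1 of 6 tested called higher. Most of that sum was Gata3, Rora, Klrg1 and Il9r. Of these, Gata3, Rora and Klrg1 are also on the list of tissue regulatory T cell genes used here. Of its cytokine genes Il5 was at 0 in every library and Il13 at no more than 0.496 CPM in myeloma and at 0 in controls. The part of these cells in the Il1rl1 values was not tested.

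RSEM also estimates which annotated transcripts the reads of a gene came from, and the deposited length of a gene is the mean over these weighted by abundance. For Il1rl1, with 5 annotated transcripts of 375 to 5302 bases and both a membrane and a shorter soluble product, it was 4287, 4398 and 4343 bases in myeloma replicates 3, 4 and 5, against 4061, 3819 and 3801 bases in control replicates 1, 3 and 5. For Il18r1 it was 3676, 3641 and 3644 bases, against 3533, 3517 and 3481 bases in the same order. Both genes were assigned longer transcripts in each myeloma library than in any control. Of the 6 receptor genes tested whose length varied, these 2 were separated between the groups, as were 13.5% of 9186 genes of this kind. For Il6ra the share of its longer transcript was 46.7%, 43.9% and 42.0% in myeloma and 43.9%, 39.5% and 35.6% in controls, which overlap by a small margin. These are estimates of a model, deposited without an error, and 3 against 3 values cannot give an exact two-sided permutation p below 0.1. With the effective length as an offset the log2 fold change of Il1rl1 was -0.06 (adjusted p = 0.822).

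**Figure D4:**
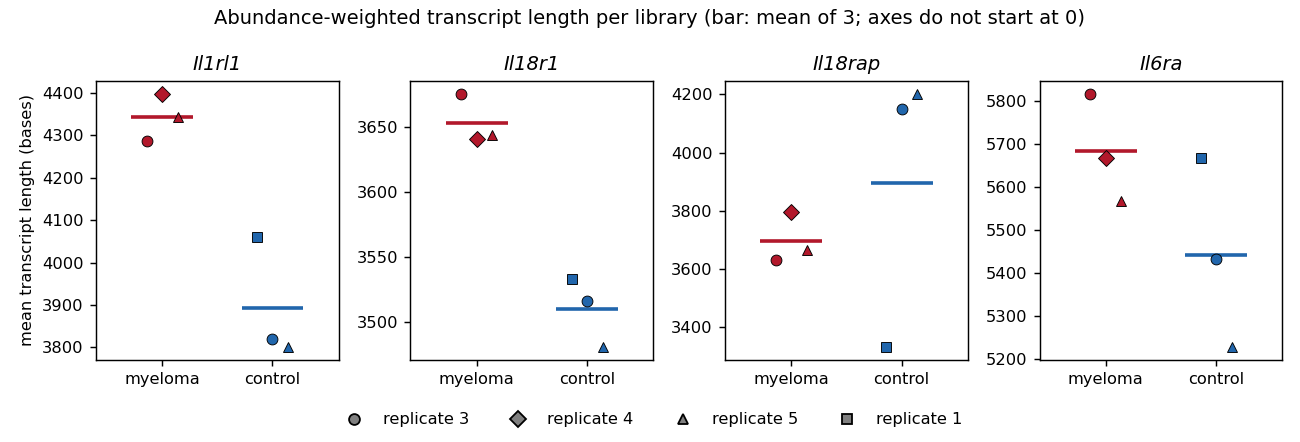
Mean transcript length that RSEM assigned to 4 receptor genes (vertical axes, bases, not starting at 0) in the 3 myeloma and 3 control libraries; symbols mark the replicate number and bars the mean. For Il1rl1 and Il18r1 the myeloma points lie above the control points, while for Il18rap and Il6ra the groups overlap.

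Levels of different genes were compared in TPM. Il27ra led in all 6 libraries, at 123 ± 13.9 TPM in myeloma and 148 ± 9.96 TPM in controls (SD, n = 3 each). By the mean over all libraries there followed Il18r1 (59.9 ± 15.2 and 74.5 ± 6.46 TPM), Il6ra (42.0 ± 8.35 and 74.6 ± 11.97), Il1rl1 (50.9 ± 12.3 and 62.8 ± 3.77), Il6st (38.9 ± 6.92 and 60.3 ± 11.7) and Il12rb1 (46.9 ± 4.04 and 28.8 ± 5.72), each myeloma before control. Neighbours among these 5 overlapped in their spread within myeloma. In controls Il12rb1 was the sixth of the 10 in each library, and in myeloma it ranked from the second to the fifth. Il1r2 (18.6 ± 2.97 and 6.69 ± 6.12 TPM) and Il18rap (16.8 ± 1.90 and 13.1 ± 6.06 TPM) came next, with Il1r2 ranked above Il18rap in each myeloma library and below it in each control library. Il12rb2 and Il1r1 stayed at or below 0.46 TPM in myeloma and 0.48 TPM in controls. TPM are not scaled by TMM, and for Il1rl1 and Il18r1 they also follow the transcript lengths above, so the tests between the groups used counts, and ratios and ranks in TPM are given as descriptions.

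The genes whose levels over the 6 libraries were most like those of Il12rb1, by the root mean square difference of mean-centred log2 CPM, were Hook2 (0.06), the class I gene H2-T23 (0.08) and 2610524H06RIK (0.09). For Il6ra they were Rasgrp2 (0.07), Chst10 (0.07) and Mdc1 (0.07).

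Partner chains, decoys and ligands were looked at next. Of 15 other chains, decoys and antagonists 7 could be tested and none was called by edgeR, with unadjusted p under 0.05 for Il1rn and Il18bp. DESeq2, limma-voom and the edgeR fit without control replicate 1 each called 1. So did edgeR with no filter on low counts and edgeR with a block for replicate number. The median log2 fold change was 0.12, against 0.02 over all genes tested. The IL-1 receptor antagonist gene Il1rn stood at 3.64, 4.07 and 6.52 CPM in myeloma replicates 3, 4 and 5, against 2.03, 0.344 and 0.508 CPM in control replicates 1, 3 and 5. The groups did not overlap, with 2.29 ± 0.65 (SE) on the log2 scale and an adjusted p of 0.0553. The shared IL-1 family partner Il1rap was at 18.2 ± 6.71 CPM in myeloma and 17.8 ± 1.40 CPM in controls, and Sigirr, an inhibitory member of the family, at 122 ± 10.8 and 112 ± 7.34 CPM. Il18bp, the soluble IL-18 antagonist, was at 6.76 ± 2.28 and 4.004 ± 0.189 CPM (log2 fold change 0.76, adjusted p = 0.168). Of the remaining gp130 partners Il11ra1 was at 12.4 ± 2.003 and 13.6 ± 0.529 CPM, Lifr at 1.95 ± 2.43 and 1.27 ± 0.851 CPM, and Osmr at no more than 0.762 CPM in myeloma and 0.468 CPM in controls. Il23r, which pairs with Il12rb1, was at 1.02, 0.496 and 0 CPM in myeloma and at 0 in controls. Il1rapl1 and Il31ra reached at most 0.714 CPM in myeloma and 0.624 CPM in controls, and Il1rapl2, Il11ra2 and Cntfr were at 0 throughout.

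Of 23 ligand names 20 matched a gene and 6 could be tested, and Ebi3 rose. Ebi3, the chain that IL-27 and IL-35 share, stood at 32.2, 31.5 and 31.0 CPM in myeloma replicates 3, 4 and 5, against 18.0, 12.5 and 9.73 CPM in control replicates 1, 3 and 5. The difference was 2.35-fold (1.23 ± 0.21 on the log2 scale, SE, with an adjusted p of 0.00847) and was called whichever library was left out. The possible partners of this chain were scarce, with Il27 at up to 0.804 CPM in myeloma and 0.218 CPM in controls and Il12a at up to 0.536 and 1.63 CPM. Osm (30.0 ± 2.60 and 24.6 ± 6.20 CPM), Clcf1 (92.0 ± 5.64 and 106 ± 8.87), Lif (4.87 ± 3.41 and 7.26 ± 1.83), Il18 (2.82 ± 1.09 and 1.42 ± 0.522) and Cntf (1.28 ± 0.520 and 1.56 ± 0.457) were not called. Il1b stood at 29.9 CPM in myeloma replicate 5 and at no more than 0.397 CPM in the other myeloma libraries and 0.78 CPM in controls. That library also had the highest sum of monocyte and macrophage markers, at 640 CPM, and the part of such cells was not tested. Il6, Il33, Il1a, Il11, Il23a, Ctf1 and Il1f9 stayed below 1 CPM in each library, and Il12b, Il31, Il1f6 and Il1f8 were at 0.

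Of 133 genes tested in 8 lists around the receptors, each counted once, 31 were higher and 8 lower in myeloma by edgeR, or 29.3% called, where 11.0% of all genes tested were called, 6.33% as higher and 4.69% as lower. With control replicate 3 left out 18 were higher, and the number lower went down to 1 without myeloma replicate 4. Removing replicate 3 of either group gave 2 lower, myeloma replicate 5 gave 4 and control replicate 1 gave 5. Of the 39 genes called, 17 passed whichever library was left out. The lists were chosen with earlier results of these data known. The share called, here and in each list below, therefore cannot be read as an excess over all genes.

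Among 25 genes tested of signalling from the IL-1 and IL-18 receptors 3 rose and 2 fell, with a median log2 fold change of -0.09. The adaptor Myd88 rose to 72.7 ± 6.03 CPM in myeloma against 53.0 ± 4.75 CPM in controls (log2 fold change 0.46, adjusted p = 0.0253). Map2k3, a kinase upstream of p38, rose to 76.4 ± 4.10 against 47.2 ± 9.72 CPM, and the ubiquitin-conjugating enzyme gene Ube2n to 88.2 ± 6.71 against 68.8 ± 3.91 CPM. Traf6, the ubiquitin ligase downstream of Myd88, fell to 69.9 ± 1.153 against 91.2 ± 5.45 CPM. Map2k6, like Map2k3 a kinase gene upstream of p38, fell to 10.1 ± 1.92 against 16.4 ± 1.10 CPM. None of these 5 passed in all fits with 1 library left out, where the list had 0 to 1 genes higher and 0 to 1 lower. Each had its highest adjusted p without control replicate 3, at 0.0828 for Myd88, 0.0757 for Map2k3, 0.132 for Ube2n, 0.0958 for Traf6 and 0.174 for Map2k6. The Irak kinase genes were not called, with log2 fold changes from -0.14 to 0.07.

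Among 19 genes tested of JAK-STAT signalling 4 rose and 1 fell, with a median of 0.07. Stat4, which IL-12 activates, stood at 162, 165 and 100.4 CPM in myeloma, against 139, 121 and 149 CPM in controls, and was not called (log2 fold change 0.06, adjusted p = 0.864). Stat3, used by IL-6 and IL-27, lay higher in each myeloma library without passing (0.30, SE 0.10, adjusted p = 0.0866). The feedback inhibitor gene Socs1 rose to 132 ± 17.8 CPM in myeloma against 44.1 ± 25.3 CPM in controls, Socs3 to 195 ± 10.9 against 149 ± 6.13 CPM and the kinase gene Jak2 to 278 ± 21.0 against 207 ± 5.59 CPM. Each of these 3 passed in 3 of 6 fits with 1 library left out, and the list had 1 gene higher when replicate 3 of either group was left out. Jak1 fell to 618 ± 71.4 against 816 ± 46.7 CPM and passed in none of these fits.

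**Figure D5:**
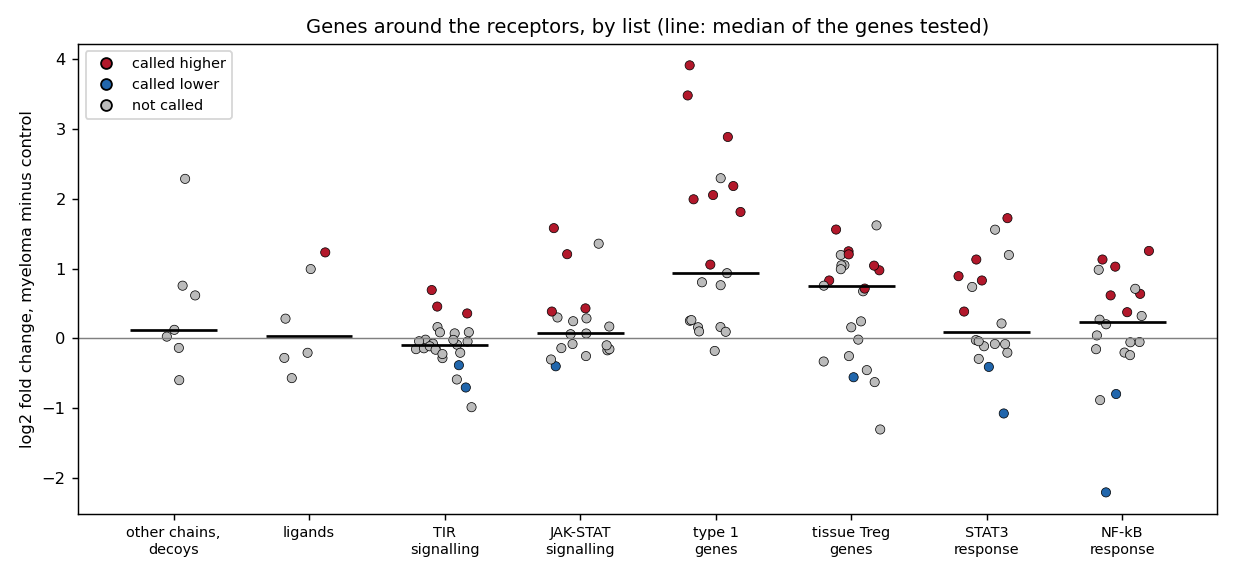
Log2 fold change (vertical axis, myeloma minus control) of every tested gene in 8 lists around the receptors (horizontal axis), with genes called higher or lower in colour and the median of each list as a line. The type 1 list has its median at 0.94 and the tissue regulatory T cell list at 0.76, and the lines of the other lists lie between -0.09 and 0.24.

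Of 19 genes tested that are linked to type 1 responses to IL-12 and IL-18, 8 rose and none fell, with a median of 0.94. Among them were Gzmb, Ccl5, Tbx21, Nkg7, Ccl4, Cxcr3 and Gzma. Tbx21, the transcription factor T-bet, stood at 28.6 ± 6.30 CPM in myeloma and 7.17 ± 2.92 CPM in controls. Ccl5, a chemokine, stood at 152 ± 16.9 and 33.4 ± 10.6 CPM. Cxcr3 lost its call without control replicate 3 (adjusted p = 0.0552), and Gzma, a protease with 2.96 ± 1.56 and 0.248 ± 0.288 CPM, passed in 1 of 6 fits with 1 library left out. The cytokine gene Ifng itself, at 5.50, 7.44 and 8.84 CPM in myeloma and 2.81, 6.79 and 2.90 CPM in controls, was not called (log2 fold change 0.80, SE 0.41, adjusted p = 0.237). NK cells also express several of these genes. The 11 NK cell markers summed to 19.6 to 54.2 CPM in myeloma and 17.3 to 21.1 CPM in controls, and Gzma was called higher among the 4 that could be tested. Tyrobp, which myeloid cells share, reached 34.0 CPM in myeloma replicate 5 and at most 4.92 CPM in controls, and the NK receptor gene Ncr1 was at no more than 0.179 and 0.234 CPM. The part of NK cells was not tested.

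Of 23 genes tested that mark ST2-positive regulatory T cells of tissues, 7 rose and 1 fell, with a median of 0.76, while Il1rl1 itself was not called. Klrg1, a receptor of differentiated lymphocytes, rose to 151 ± 26.8 CPM in myeloma against 63.5 ± 12.03 CPM in controls, and the transcription factor gene Batf to 70.8 ± 4.52 against 39.8 ± 7.44 CPM. Fgl2, a suppressive mediator, rose to 246 ± 10.5 against 83.4 ± 7.44 CPM and Tnfrsf4, the receptor OX40, to 465 ± 12.6 against 236 ± 53.9 CPM. These 4 passed whichever library was left out. Nrp1 fell to 284 ± 26.5 against 417 ± 20.7 CPM. Gata3, the factor that ST2-positive cells depend on, stood at 226 ± 11.5 and 229 ± 24.5 CPM (log2 fold change -0.02, adjusted p = 0.929). The repair factor Areg was at 4.23, 5.66 and 2.59 CPM in myeloma, against 8.97, 20.5 and 1.45 CPM in controls, and Il10 at 24.0, 26.9 and 47.8 against 19.5, 21.2 and 2.61 CPM. Neither was called. Without control replicate 1 the list had 11 genes higher, and without control replicate 5 it had 3 lower.

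Of 18 genes tested that respond to IL-6 and IL-27 through STAT3, 5 rose and 2 fell, with a median of 0.09. Bcl3, an NF-kB cofactor, rose to 109.8 ± 7.67 CPM in myeloma against 50.1 ± 8.93 CPM in controls, and Havcr2, the inhibitory receptor TIM-3, to 9.64 ± 1.605 against 2.91 ± 0.613 CPM. Both passed whichever library was left out. Maf rose to 398 ± 53.2 against 215 ± 52.5 CPM and lost its call without control replicate 3 (adjusted p = 0.0655). Junb fell to 871 ± 226 against 1836 ± 475 CPM, with its highest adjusted p of 0.0729 without myeloma replicate 4, and Il4ra to 187 ± 15.2 against 248 ± 21.2 CPM, with 0.116 without control replicate 3. Batf and Socs3, given above, are also on this list. Without control replicate 3 the list had 3 genes higher and 0 lower. The number lower was also 0 without myeloma replicate 3 or 4, and 1 when replicate 5 of either group was left out.

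Of 20 NF-kB response genes 6 rose and 2 fell, with a median of 0.24. Relb, an NF-kB subunit, rose to 122 ± 2.29 CPM in myeloma against 78.3 ± 6.58 CPM in controls and passed whichever library was left out. Icam1, an adhesion receptor, rose to 177 ± 14.8 against 116 ± 13.9 CPM and Tnf to 21.2 ± 0.306 against 10.4 ± 2.52 CPM, with highest adjusted p of 0.0513 without myeloma replicate 4 and 0.0603 without control replicate 3. The inhibitor gene Tnfaip3 fell to 519 ± 111 against 2400.0 ± 1271 CPM and missed the threshold when myeloma replicate 4 was left out (0.0575). Nfkbiz fell to 156 ± 9.66 against 271 ± 95.8 CPM and passed in 1 of 6 fits with 1 library left out. The number of list genes higher was 2 without myeloma replicate 4 and 3 without control replicate 3. The number lower was 0 without myeloma replicate 4 and 1 when replicate 3 of either group, myeloma replicate 5 or control replicate 1 was left out. Nfkbia, a direct target of the pathway, overlapped between the groups, at 559, 523 and 412 CPM in myeloma and 507, 684 and 359 CPM in controls.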

How the data were processed

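RNA was measured in 6 libraries of sorted marrow regulatory T cells, made with the RNeasy Micro and NEBNext Ultra RNA kits per the labels' protocols. Picard, STAR, RSEM, DESeq2 and the build mm10 are named in the submitters' processing notes; their versions are not given in the sources used. The authors' expected counts are RSEM estimates of reads per gene, not normalized, per the file headers. The deposited TPM are scaled by the authors' RSEM run for effective length and library total; the deposited FPKM were not used. Transcript lengths, in bases, are also deposited. RSEM divides reads shared by genes, so counts of close relatives are uncertain.

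Gene IDs without their version gave symbols for 47224 of 47643 genes, and positions are from GENCODE M21 (GRCm38, the assembly of mm10). Groups follow the sample titles. Nothing states that libraries come from separate mice beyond a design text of 3 marrows per group, so p-values measure the spread between libraries. Expected counts were rounded, passed through filterByExpr with a minimum count of 10 and a total of 15. With TMM factors they were fitted by glmQLFit (edgeR 4.0.16, R 4.3.3) and tested by glmQLFTest as myeloma minus control over 13235 genes at an adjusted p of 0.05. The SE is the log2 fold change divided by the square root of F, and the biological coefficient of variation was 0.202. The test was tested on simulated data. Alternatives were RLE or upper-quartile scaling, unscaled library sizes, no low-count filter, a filter of 1 CPM in 3 samples, DESeq2 1.42.0, limma-voom (limma 3.58.1), an effective-length offset, leaving out mitochondrial, haemoglobin and immunoglobulin genes, a block for replicate number and each library left out.

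The receptor genes, the 8 lists and the markers were chosen with earlier results of these data known. The text names all receptor genes, their ligands and partner chains, neighbours of the receptor row, up to 4 called genes per list and direction with the smallest p, and the 3 most similar genes of the 2 called receptor genes. List genes named without a call, among them Stat4, Stat3, Ifng, Gata3, Areg, Il10, the Irak genes and Nfkbia, were chosen after their values were seen. Lists share genes. Some list genes are counted but not reported by name here.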

Additional observations from a re-analysis of the deposited data

How the results depend on the processing

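Il12rb1 was called in all 16 alternative fits, with a log2 fold change from 0.87 to 1.14. Il6ra was called in 9 of 10 other settings and in 2 of 6 fits with 1 library left out. In the fit with the replicate number as a block, receptor genes were 3 higher and 0 lower, because Il1r2 (adjusted p = 0.0085) and Il18rap (0.0233) gained and Il6ra (0.0719) lost a call. Pathway genes lower were then 1, and 362 genes were higher and 142 lower over all. Nothing in the sources read states that the numbers pair the libraries. Deviations of the libraries that share number 3 correlated at 0.03 and those that share 5 at 0.10 across genes. Pairs with different numbers ran from -0.08 to 0.05. The block rests on these 2 shared numbers, too few to decide whether libraries are paired. With library sizes alone 1004 genes were lower. With no filter 1337 were higher, 1102 lower and 3 receptor genes higher. With DESeq2 964 were lower and 3 receptor genes higher, and with limma-voom 2 receptor genes were higher. With the effective-length offset 372 genes and 4 pathway genes were lower, and Il1rl1 turned to -0.0622. With 1 library left out, 331 to 836 genes were higher and 123 to 546 lower, receptor genes were 1 to 3 higher and 0 to 1 lower, and pathway genes 18 to 37 higher and 1 to 6 lower. The log2 fold change then ran from -0.0677 to 0.18 for Il1rl1, from -0.15 to 0.14 for Il18r1 and from -0.0653 to 0.026 for Il27ra. The causes of these shifts were not tested, and each fit with 1 library left out also had fewer samples. Depth limits Il1r1 and Il12rb2, with 38 and 23.58 expected counts over 6 libraries.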

Other observations

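The TPM ratio of the IL-1 decoy Il1r2 to the shared partner Il1rap, a pair added after the data were seen, was 4.46, 1.96 and 4.64 in myeloma replicates 3, 4 and 5, against 1.85, 0.566 and 0.462 in control replicates 1, 3 and 5. The myeloma values lay above the control values, by a small margin between myeloma replicate 4 and control replicate 1.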
